A study of Danio rerio with 15 samples.

Results

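Tris(4-chlorophenyl)methanol (TCPMOH) and tris(4-chlorophenyl)methane (TCPM) are persistent chlorinated pollutants whose molecules differ at one position. The central carbon carries a hydroxyl group in TCPMOH and a hydrogen in TCPM. The transcriptomes of zebrafish larvae given either compound at the same dose and for the same time were compared gene by gene. Genes were tested where the base mean, the mean normalised read count over the libraries of a fit, was 10 or more in both deposited tables, which were 22734 of 36351 genes.

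Poly(A) RNA was sequenced from pools of 8 to 10 whole larvae of the wild-type AB strain. The compared groups were larvae in water with 50 nM TCPMOH and larvae in water with 50 nM TCPM, and the vehicle group, to which both were referred, had 0.01% v/v dimethyl sulfoxide (DMSO). Each treatment ran between 24 and 100 hours post fertilization (hpf), and collection followed at 100 hpf. The DMSO content of the compound groups is not stated in the labels. The labels name 5 pools a group, from 20 breeding pairs and 3 runs of the experiment. The values showed that 4 libraries of each group entered the authors' fits. Their assigned reads, estimated from the deposited values, were 18.8 to 20.2 M for TCPMOH and 18.1 to 25.9 M over all libraries. The same 4 DMSO libraries stood behind both tables. Which of the 5 pools was left out and which pool came from which experimental replicate are not stated, so the p-values measure the spread between pools that share parents and days to an unknown degree.

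The tables hold fitted values and no column per library, so levels are given as group means of normalised counts, and values of single pools are not shown. The ± after a mean is a standard error computed from that mean and the dispersion implied by the fits (n = 4 libraries a group). It is not the measured spread of a group's own libraries. The difference between the compounds is the log2 fold change of TCPMOH over DMSO minus that of TCPM over DMSO, after the authors' shrinkage of fold changes toward 0 was undone. Its standard error allows for the shared DMSO libraries and takes the undoing of the shrinkage as exact. A gene was called higher or lower with TCPMOH where a two-sided normal test of this difference gave a Benjamini-Hochberg adjusted p under 0.05 over all genes tested. Counts were not divided by gene length, so levels are compared within a gene and not between genes. Whole larvae were sequenced, so fewer cells of a type and less RNA per cell cannot be told apart.

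Several well-studied responses of a fish larva, picked with earlier results of these data known, serve as landmarks for such a comparison. Planar chlorinated and polycyclic compounds bind the aryl hydrocarbon receptor (Ahr), a ligand-activated transcription factor that turns on cyp1a and its relatives. Misfolded protein releases Hsf1, the factor that switches on the genes of inducible chaperones. The clock of zebrafish is reset by light in nearly every cell, and light also switches on photolyase and DNA repair genes, while neuronal activity and growth factors set off immediate early genes such as those of the Fos and Nr4a families.

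At 50 nM, 93 of 22734 genes (0.409%) differed between TCPMOH and TCPM. Of these, 48 (0.211%) were higher and 45 (0.198%) were lower with TCPMOH. The median size of the difference among the called genes was 0.52 on the log2 scale, a 1.44-fold difference, and the sizes ran from 1.21-fold to 2.72-fold. Only 4 of the 93 differed by 2-fold or more. These were hsp70.3, a gene of an inducible cytosolic Hsp70 chaperone, and 3 transcripts that the tables list without a gene symbol. The difference of hsp70.3 was 0.96 log2 units with a prior 5% wider in undoing the shrinkage, and 0.73 on the deposited scale. It was thus under 2-fold in both settings. The 3 transcripts were not tested with a base mean of at least 50. Of them, XLOC_009558 also lost its call with the root of the standard error taken from the dispersion alone (adjusted p = 0.115). The plot of the difference against expression level shows called genes in both directions, with 6 of the 93 below a base mean of 100. At an unadjusted p under 0.05 there were 991 of 22734 genes, 474 higher and 517 lower with TCPMOH. This is fewer than a share of 0.05 of all genes. The median size of the ratio of difference to standard error was 0.866 of that of a standard normal. The ratios were thus smaller than the test assumes, and the unadjusted count cannot show whether further genes differ. Unadjusted counts of single lists are to be read against the unadjusted counts of all genes. The median difference over all genes tested was -0.0028. The count rests on the allowance for the shared DMSO libraries: with a covariance of 0 in its place 15 genes passed, 11 higher and 4 lower with TCPMOH, among them 6 of the heat shock list, 3 immediate early genes, 2 light-induced genes and 1 Ahr target, with 0 of the clock list.

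**Figure D1:**
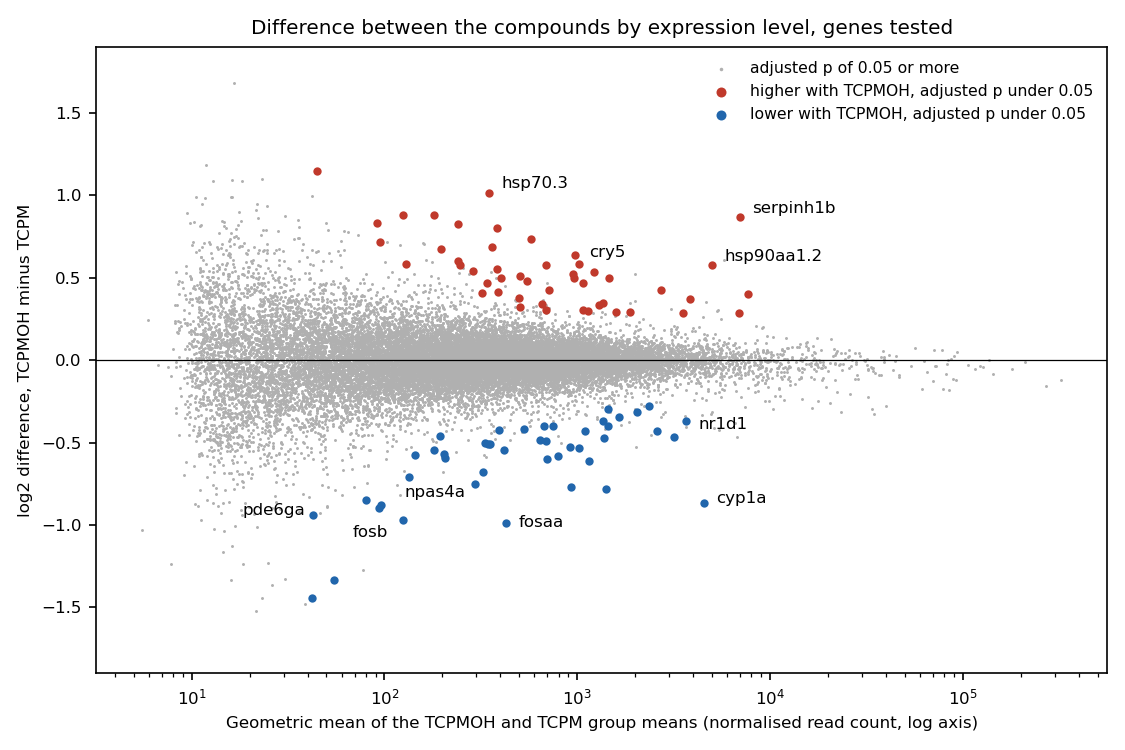
Each point is 1 of the 22734 genes tested, placed by its level (x axis, geometric mean of the TCPMOH and TCPM group means in normalised read counts, log axis) and its difference (y axis, log2, TCPMOH minus TCPM). The 48 genes higher with TCPMOH are red and the 45 lower are blue; the cloud of other genes widens toward low levels, where the test calls only large differences.

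For the genes that did not pass, the intervals show how large a difference could have been missed. The 95% interval of a gene's difference extended 0.243 log2 units to each side at the median, and 0.155 to 0.619 from the 10th to the 90th percentile of genes. It was 0.158 at the median for the 3791 genes whose base mean was 1000 or more, and 0.525 for the 6218 genes below 100. The whole interval lay within ±1 log2 unit for 94.3% of genes and within ±0.5 for 72.4%. A gene without a call has therefore not been shown to respond alike to both compounds, and its interval gives the range of differences that these data allow.

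Chaperone genes formed the largest called group. Of 60 tested genes of the heat shock list, 11 were higher with TCPMOH and 0 were lower, against 0.211% and 0.198% of all genes. An unadjusted p under 0.05 was reached by 22 higher and 2 lower, against 474 and 517 of all 22734 genes. The median difference of the list was 0.09. The called genes include Hsp70s, Hsp90s, their J-domain partners and a collagen chaperone.

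The smallest p of all genes belonged to serpinh1b (Entrez 30449), which encodes Hsp47, the chaperone that binds procollagen in the endoplasmic reticulum. Its mean was 9387 ± 230.2 normalised counts with TCPMOH, 5151 ± 121 with TCPM and 6378 ± 153 with DMSO. The means of the compound groups lay on opposite sides of the DMSO mean, and the gaps were several times the standard errors. The difference was 0.87 ± 0.049 (log2, ± SE), or 1.82-fold higher with TCPMOH (adjusted p = 1.87e-65).

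The inducible Hsp70 genes, whose products hold unfolded proteins and are made in quantity after heat or toxic stress, include the 2 largest differences of the list, those of hsp70.3 and hsp70.2. hsp70.3 had 495 ± 38.2 normalised counts with TCPMOH, 244 ± 16.2 with TCPM and 325 ± 23.5 with DMSO. It was 2.02-fold higher with TCPMOH than with TCPM (adjusted p = 2.00e-08). For hsp70.2 the means were 245 with TCPMOH, 132 with TCPM and 195 with DMSO, a difference of 0.88 ± 0.15 (adjusted p = 2.88e-06). The means of hsp70l were 504 with TCPMOH, 289 with TCPM and 437 with DMSO, and the difference was 0.80 ± 0.13 (adjusted p = 2.00e-06). In all 3 genes the order of the group means was TCPMOH, DMSO, TCPM, but not every step of it passed. In the authors' tests against DMSO, TCPMOH passed for hsp70.3 (adjusted p = 0.00862) and not for hsp70.2 (0.439) or hsp70l (0.774). TCPM passed for hsp70.2 (0.00566) and hsp70l (1.86e-04) and not for hsp70.3 (0.0918). These genes are near-identical copies, and how reads that match several copies were counted is not given, so they are uncertain as single genes.

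J-domain proteins deliver unfolded clients to Hsp70 and start its ATP cycle. Of these, dnajb1b had 741 ± 33.5 normalised counts with TCPMOH, 446 ± 18.3 with TCPM and 688 ± 29.1 with DMSO. The TCPMOH mean was near the DMSO mean and the TCPM mean lay below both, and the difference of 0.73 ± 0.087 passed the test (adjusted p = 5.69e-13). dnaja1, another cytosolic J-domain protein, showed the same order with a smaller difference of 0.35 (95% interval 0.20 to 0.49).

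Hsp90 finishes the folding of kinases and of receptors, the Ahr among them, and hsp90aa1.1 is the form used in zebrafish muscle. hsp90aa1.2 had 6094 ± 247 normalised counts with TCPMOH, 4089.7 ± 151 with TCPM and 4439 ± 172 with DMSO, a 1.49-fold difference (adjusted p = 1.44e-09). hsp90aa1.1 had 4390.2 ± 152 normalised counts with TCPMOH, 3400.5 ± 122 with TCPM and 3365 ± 119 with DMSO, a 1.29-fold difference (adjusted p = 2.52e-04). In both genes the TCPMOH mean was the highest, and for hsp90aa1.1 the TCPM and DMSO means lay within their standard errors of each other. These genes are adjacent in the RefSeq annotation and close copies of each other, so they too are uncertain as single genes.

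The last 3 called members included hspa4a, an Hsp110-type exchange factor for Hsp70, with a difference of 0.29 (0.15 to 0.43), and hspd1, the mitochondrial chaperonin Hsp60, with 0.28 (0.14 to 0.43). The gene listed as si:ch211-199o1.2, which RefSeq names hspa1b, had 0.59 (0.28 to 0.89), and lost its call without the filter on base means (adjusted p = 0.0520). Other lists of protein quality control had no call: 0 of 8 subunits of the cytosolic chaperonin TRiC, 0 of 41 proteasome subunits and 0 of 38 genes of the endoplasmic reticulum stress response passed in either direction. At an unadjusted p under 0.05 there were 0 in the first 2 lists, and 1 higher and 2 lower in the stress list. All 8 TRiC subunits had positive differences of 0.04 to 0.11, and the bound of their intervals farthest from 0 was 0.31. The proteasome median was 0.04, with no bound past 0.45.

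**Figure D2:**
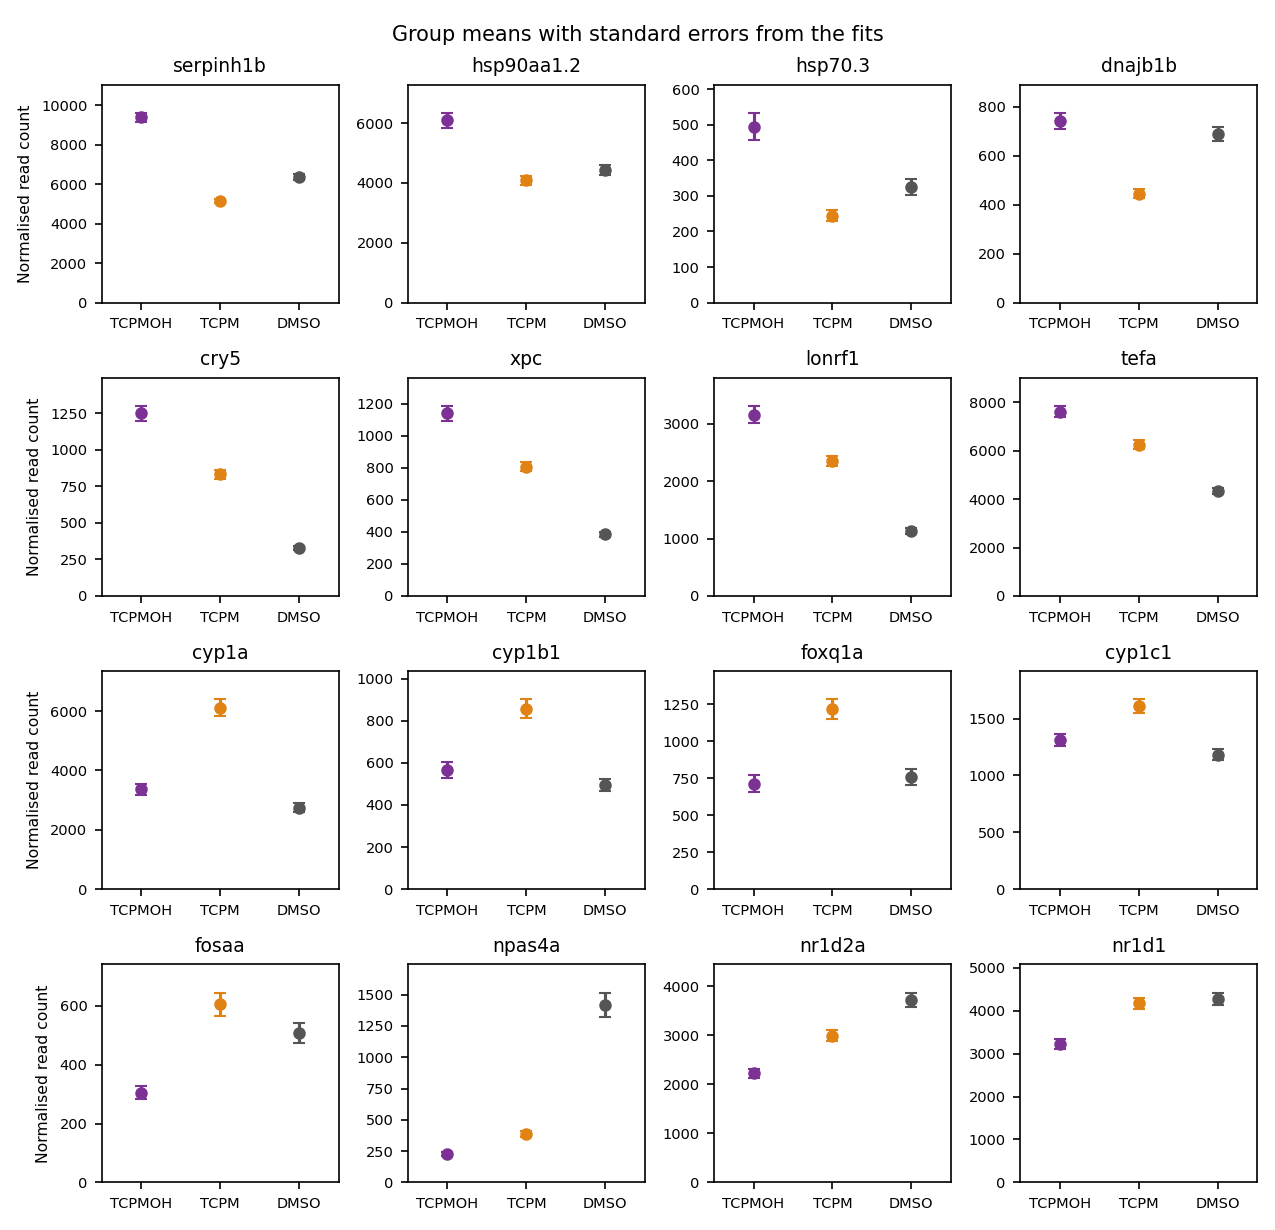
Mean normalised read count (y axis, starting at 0) of 16 called genes in the TCPMOH, TCPM and DMSO groups. Each has a standard error computed from its mean and the dispersion implied by the fits (n = 4 libraries a group). In the chaperone row the TCPMOH mean is the highest of the 3 groups, in the row of light-induced genes the means descend in the order TCPMOH, TCPM, DMSO, and in the row of Ahr genes the TCPM mean is the highest.

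Several Ahr target genes were lower with TCPMOH than with TCPM. Of 14 tested genes of the list 4 were lower (0.198% of all genes were) and 1 was higher (0.211%), and the median difference was -0.22. An unadjusted p under 0.05 was reached by 5 lower and 1 higher, against 517 and 474 of all 22734 genes. cyp1a (Entrez 140634), the monooxygenase used across fish species as a readout of Ahr activity, had 3358 ± 192 normalised counts with TCPMOH, 6113 ± 279 with TCPM and 2744 ± 143 with DMSO. The TCPM mean was far above those of the other groups, which lay much closer to each other. The difference was -0.86 ± 0.11, or 1.82-fold lower with TCPMOH (adjusted p = 5.93e-12).

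In the other 3 called lower genes too, the TCPM mean was the highest. foxq1a, a forkhead transcription factor gene, had 713 ± 58.7 normalised counts with TCPMOH, 1216 ± 66.1 with TCPM and 757 ± 53.1 with DMSO, and the difference was -0.77 ± 0.15 (adjusted p = 1.82e-04). cyp1b1, a relative of cyp1a that metabolises steroids and retinoids, had 567 ± 37.6 normalised counts with TCPMOH, 858 ± 43.8 with TCPM and 494 ± 29.8 with DMSO, and the difference was -0.60 ± 0.12 (adjusted p = 9.23e-04). The means of cyp1c1, a cyp1 gene that mammals lack, were 1309 with TCPMOH, 1611 with TCPM and 1184 with DMSO, a difference of -0.30 ± 0.078 (adjusted p = 0.0361), which did not pass without the filter on base means (adjusted p = 0.05002). For foxq1a the TCPMOH mean was under the DMSO mean, and for the 3 cyp1 genes it was above. None of these gaps passed in the authors' tests of TCPMOH against DMSO (adjusted p = 0.252 to 0.977).

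The remaining Ahr list genes did not pass. cyp1c2 differed by -0.17 (-0.42 to 0.07), and ahrra, a gene of the Ahr repressor that closes the feedback loop, by -0.35 (-0.70 to 0.01). nqo1, a quinone reductase, differed by -0.01 (-0.17 to 0.16), and ugt1b1, a glucuronosyltransferase, by -0.02 (-0.25 to 0.20). The 1 gene of this list that was higher with TCPMOH was cyp2k18, a cytochrome P450 of the fish Cyp2k subfamily, with 844 ± 58.6 normalised counts with TCPMOH, 566 ± 36 with TCPM and 540.3 ± 36.4 with DMSO and a difference of 0.58 ± 0.14 (adjusted p = 0.00952).

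Among 66 tested genes of xenobiotic enzymes and transporters, 2 were higher with TCPMOH (0.211% of all genes) and 0 were lower, and the list median was 0.03. At an unadjusted p under 0.05 there were 12 higher and 1 lower, against 474 and 517 of all 22734 genes. abcg2b, which encodes an ABC transporter that pumps drugs out of cells, had 249 ± 18 normalised counts with TCPMOH, 156 ± 12.5 with TCPM and 123 ± 9.98 with DMSO, and the difference was 0.67 ± 0.16 (adjusted p = 0.00979). cyp2k6, another Cyp2k enzyme, had 122 ± 12.3 normalised counts with TCPMOH, 68.4 ± 7.38 with TCPM and 82.8 ± 8.72 with DMSO, a difference of 0.83 ± 0.21 (adjusted p = 0.0275), and lost its call with a prior 5% wider (adjusted p = 0.188), which left 1 higher gene in the list. Another gene of the list, abcc4, just missed the threshold (difference 0.28, adjusted p = 0.0514). It passed on the deposited scale, with a base mean of at least 50 and with centring on the median. It also passed with covariance from counting error and dispersion and with the root taken from the dispersion alone. The adjusted p there was 0.0434 to 0.0499, and 3 genes of the list were higher. The abcg2b paralog abcg2a had a difference of 0.35 (0.15 to 0.55) that did not pass (adjusted p = 0.14). cyp3a65, the intestinal Cyp3a enzyme regulated by the pregnane X receptor and Ahr, differed by 0.07 (-0.15 to 0.29).

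**Figure D3:**
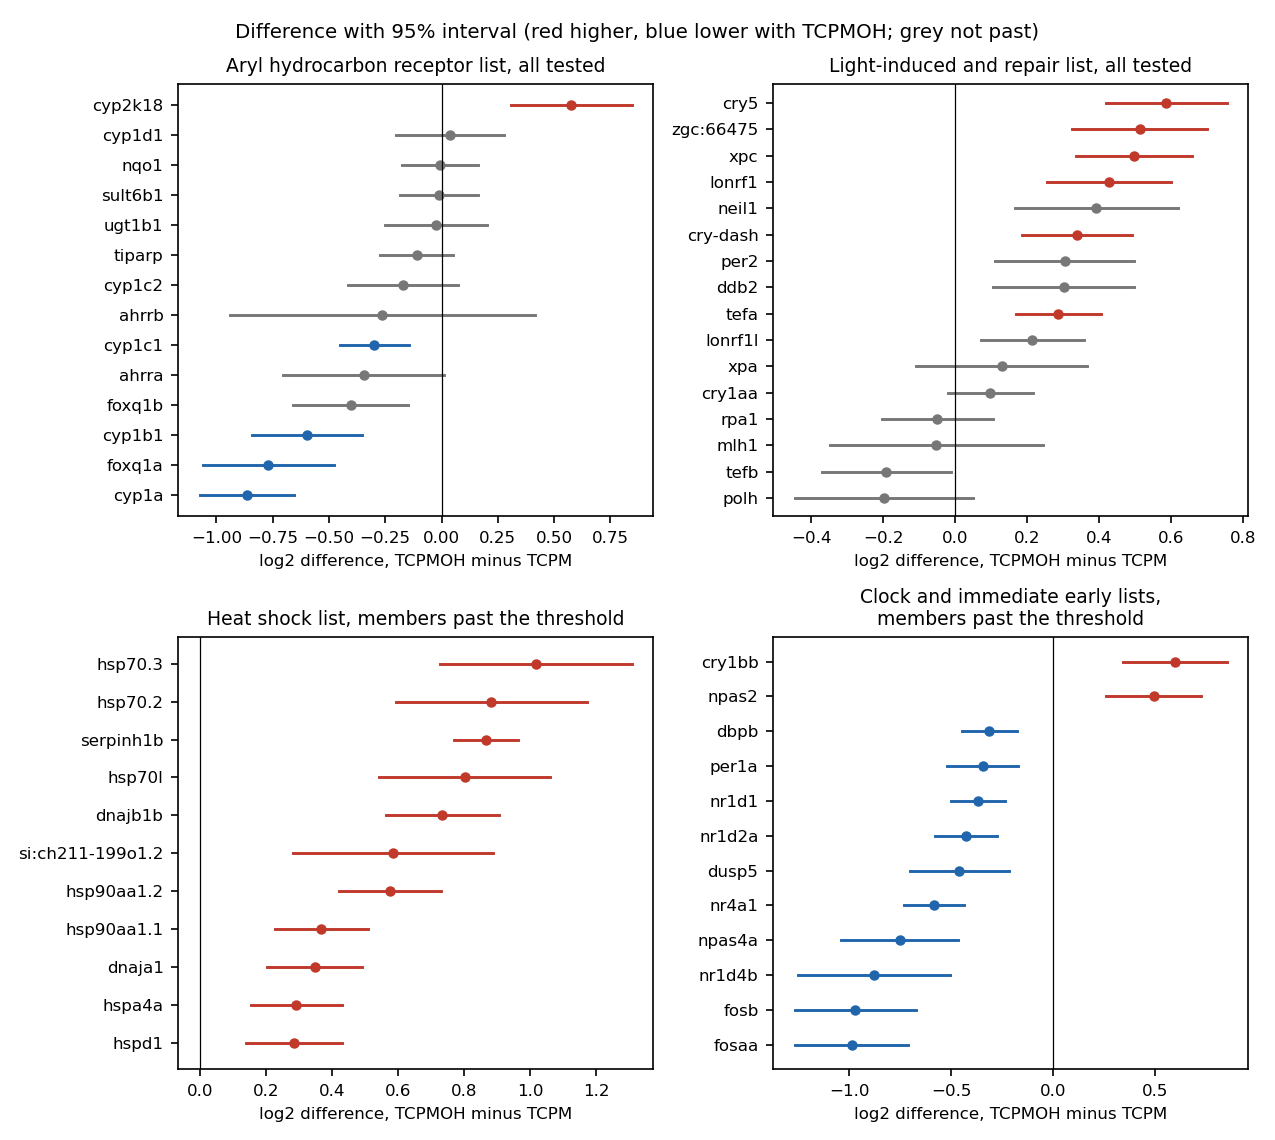
Difference (x axis, log2, TCPMOH minus TCPM) with its 95% interval for all tested genes of the Ahr and light-induced lists and for the called genes of the heat shock, clock and immediate early lists; red is higher with TCPMOH, blue is lower and grey did not pass. The Ahr panel holds 4 lower genes and 1 higher gene, the light-induced panel holds 6 higher genes, and all 11 called chaperone genes lie right of 0.

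Several genes that light switches on in zebrafish cells were higher with TCPMOH. Of 16 tested genes of the light-induced photolyase and repair list, 6 were higher and 0 were lower, against 0.211% and 0.198% of all genes. The median difference was 0.29. An unadjusted p under 0.05 was reached by 10 higher and 1 lower, against 474 and 517 of all 22734 genes. In all 6 called genes the group means descended in the order TCPMOH, TCPM, DMSO. For zgc:66475 the authors' test of TCPM against DMSO did not pass (adjusted p = 0.132). cry5, the photolyase that repairs UV lesions of the (6-4) type with the energy of light, had 1248 ± 49.7 normalised counts with TCPMOH, 831 ± 31.4 with TCPM and 327 ± 14.7 with DMSO. The difference was 0.59 ± 0.086, or 1.5-fold higher with TCPMOH (adjusted p = 2.00e-08).

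The other repair genes had the same order of means. xpc, which encodes the damage sensor of nucleotide excision repair, had 1139.5 ± 45.2 normalised counts with TCPMOH, 808 ± 28.7 with TCPM and 385 ± 16.4 with DMSO, and the difference was 0.50 ± 0.082 (adjusted p = 2.49e-06). The gene listed as zgc:66475, named cpdp in RefSeq and encoding the photolyase of cyclobutane pyrimidine dimers, had 605 ± 27 normalised counts with TCPMOH, 424 ± 19.9 with TCPM and 348 ± 16.8 with DMSO, with a difference of 0.51 ± 0.10 (adjusted p = 8.85e-05). cry-dash, a photolyase-like member of the same superfamily, had means of 1462 with TCPMOH, 1156 with TCPM and 717 with DMSO and differed by 0.34 ± 0.078 (adjusted p = 0.00654).

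The other 2 called members are not repair enzymes. lonrf1, a RING-finger gene with a Lon domain that RefSeq names lonrf4, had 3158 ± 149 normalised counts with TCPMOH, 2349 ± 81.7 with TCPM and 1132 ± 48.6 with DMSO, a difference of 0.43 ± 0.088 (adjusted p = 8.37e-04). tefa, a PAR bZIP factor that carries light signals to the clock and to repair genes in zebrafish, had 7621 ± 222 normalised counts with TCPMOH, 6250.0 ± 183 with TCPM and 4323 ± 128 with DMSO, a difference of 0.29 ± 0.06 (adjusted p = 0.00113). per2, the period gene that light induces in zebrafish, had 5972 ± 297 normalised counts with TCPMOH, 4835 ± 219.9 with TCPM and 1638 ± 79.9 with DMSO. Its difference of 0.30 (0.11 to 0.50) did not pass (adjusted p = 0.275), and neither did that of ddb2, another sensor of UV lesions, at 0.30 (0.11 to 0.50).

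Clock genes were called in both directions. Of 41 tested genes of the list, 2 were higher with TCPMOH (0.211% of all genes) and 5 were lower (0.198%), and the median difference was -0.09. An unadjusted p under 0.05 was reached by 3 higher and 11 lower, against 474 and 517 of all 22734 genes. Of the 5 called lower genes, 3 encode nuclear receptors of the Rev-erb group, which repress bmal and other clock genes. nr1d2a had 2227 ± 85.5 normalised counts with TCPMOH, 2994 ± 115 with TCPM and 3731 ± 142 with DMSO, a difference of -0.43 ± 0.078 (adjusted p = 5.00e-05). nr1d1 had 3229 ± 112 normalised counts with TCPMOH, 4169 ± 131 with TCPM and 4277 ± 141 with DMSO, a difference of -0.37 ± 0.067 (adjusted p = 5.25e-05). nr1d4b had 70.5 ± 7.63 normalised counts with TCPMOH, 130.2 ± 10.4 with TCPM and 173 ± 15.3 with DMSO, a difference of -0.88 ± 0.19 (adjusted p = 0.00222). For nr1d1 the TCPM and DMSO means lay within their standard errors of each other, and the TCPMOH mean was the lowest in all 3 genes.

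The other called clock genes were per1a, dbpb, cry1bb and npas2. The means of per1a, a period repressor, were 1464 with TCPMOH, 1859 with TCPM and 2283 with DMSO, a difference of -0.34 ± 0.089 (adjusted p = 0.0315). dbpb, a PAR bZIP output factor, had means of 1826 with TCPMOH, 2269 with TCPM and 2800.4 with DMSO and differed by -0.31 ± 0.069 (adjusted p = 0.00312). Both higher genes had means in the order TCPMOH, TCPM, DMSO. They were cry1bb, a cryptochrome that RefSeq names cry3b, with 296 with TCPMOH, 195 with TCPM and 110.2 with DMSO and a difference of 0.60 ± 0.13 (adjusted p = 0.00243), and npas2, a partner of Bmal related to Clock, with 477 with TCPMOH, 338 with TCPM and 181 with DMSO and a difference of 0.50 ± 0.12 (adjusted p = 0.0114). Collection was at one time point, 100 hpf, so a difference in level and a difference in phase cannot be told apart. The light-induced and immediate early genes were read at this time point only as well, so their course over time was not tested.

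Several immediate early genes were lower with TCPMOH. Of 45 tested genes of the list 5 were lower (0.198% of all genes) and 0 were higher, and the median difference was -0.16. An unadjusted p under 0.05 was reached by 15 lower and 0 higher, against 517 and 474 of all 22734 genes. fosaa, a c-Fos gene, had 305 ± 22.7 normalised counts with TCPMOH, 605 ± 39.2 with TCPM and 508 ± 35 with DMSO, so its TCPMOH mean was lower than both other means and its difference was -0.99 ± 0.14 (adjusted p = 1.05e-08). fosb, which encodes another AP-1 subunit, had 88.9 ± 7.69 normalised counts with TCPMOH, 174 ± 11.3 with TCPM and 212 ± 14.9 with DMSO, a difference of -0.97 ± 0.15 (adjusted p = 2.94e-07). Both were just under 2-fold lower.

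The other 3 called genes, of activity-dependent transcription and signalling, had graded means, with TCPMOH lowest and DMSO highest. For dusp5 the authors' test of TCPM against DMSO did not pass (adjusted p = 0.0856). npas4a, a factor made in neurons after calcium entry, had 228 ± 19.1 normalised counts with TCPMOH, 385 ± 22.4 with TCPM and 1419.9 ± 95.7 with DMSO. Its difference was -0.75 ± 0.15 (adjusted p = 2.52e-04). nr4a1, an orphan nuclear receptor of the early response, had 647 ± 24.9 normalised counts with TCPMOH, 969 ± 36.3 with TCPM and 1512 ± 54.4 with DMSO, a difference of -0.58 ± 0.075 (adjusted p = 6.39e-11). dusp5, a phosphatase that switches off Erk, had means of 166 with TCPMOH, 228 with TCPM and 289.9 with DMSO, a difference of -0.46 ± 0.12 (adjusted p = 0.0492). On the deposited, shrunken scale 3 of the 5 lower genes passed, without npas4a (adjusted p = 0.117) and dusp5 (adjusted p = 0.0527). Apart from that scale and covariance 0, dusp5 also missed the threshold under 5 other alternatives, with an adjusted p of 0.0507 to 0.0682.

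Other well-known early genes did not pass. fosab, the second c-Fos gene, had 194 ± 17 normalised counts with TCPMOH, 286 ± 17.8 with TCPM and 1206 ± 84.4 with DMSO. Its difference of -0.56 (-0.86 to -0.26) missed the threshold (adjusted p = 0.0618). egr1, a zinc finger factor of the early response, differed by -0.09 (-0.27 to 0.09).

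klf9, a Krüppel-like factor gene that both glucocorticoid and thyroid hormone induce, stands in both of those lists. Its means were 937 ± 58.6 normalised counts with TCPMOH, 1430.2 ± 77.6 with TCPM and 1279.9 ± 74.7 with DMSO, and the difference was -0.61 ± 0.12 (adjusted p = 2.93e-04). With per1a it makes 2 lower genes of 20 tested glucocorticoid receptor targets (0.198% of all genes), where the median difference was 0.0093. fkbp5, a co-chaperone of the glucocorticoid receptor and a usual readout of it, had a difference of -0.32 (-0.52 to -0.11) that did not pass (adjusted p = 0.332). klf9 was the 1 lower gene among 18 tested thyroid axis genes (0.198% of all genes), whose median difference was -0.14. On the deposited scale and with a base mean of at least 50 there were 2 lower genes, the other being tg, the gene of thyroglobulin (adjusted p = 0.0493 and 0.0455).

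Single genes passed in 4 further lists, and all were lower with TCPMOH. pde6ga, an inhibitory subunit of a photoreceptor phosphodiesterase, had 30.7 ± 3.77 normalised counts with TCPMOH, 59.4 ± 5.46 with TCPM and 99.1 ± 8.98 with DMSO, a difference of -0.94 ± 0.21 (adjusted p = 0.00283), and was 1 of 71 tested photoreceptor genes (0.198% of all genes were lower). On the deposited scale the cone opsin gene opn1mw2 passed as well (adjusted p = 0.0182, against 0.408 with shrinkage undone), which makes 2. elovl1a, an elongase of very long chain fatty acids, had 150.2 ± 11.8 normalised counts with TCPMOH, 219 ± 13.3 with TCPM and 210.2 ± 14.4 with DMSO, a difference of -0.54 ± 0.14 (adjusted p = 0.0383), and was 1 of 24 lipid synthesis genes. That call was lost without the filter on base means (adjusted p = 0.0531), which left 0. elnb, an elastin gene, had 945 with TCPMOH, 1275 with TCPM and 1098 with DMSO and differed by -0.43 ± 0.11 (adjusted p = 0.0306), and was 1 of 52 connective tissue genes. dsc2l, a desmosomal cadherin of epithelia, had 1196 with TCPMOH, 1546 with TCPM and 1383 with DMSO and differed by -0.37 ± 0.10 (adjusted p = 0.0321), and was 1 of 41 epidermis genes. Each of these lists held 1 call, and nothing is read from that.

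The lists held 41 of the 93 called genes, and 70 of the 93 had a proper symbol. Outside the lists, 3 genes were among the 12 largest differences in a direction of called genes with a proper symbol. Called genes with a clone, transcript or locus name were not eligible for this choice, whatever their p. wdr76, a WD-repeat gene whose product is linked to DNA damage recognition, had 301 ± 19.3 normalised counts with TCPMOH, 201 ± 11.5 with TCPM and 92.5 ± 6.78 with DMSO, a difference of 0.58 ± 0.14 (adjusted p = 0.00959). adh8a, an alcohol dehydrogenase, had 68.5 ± 7.86 normalised counts with TCPMOH, 128 ± 11.7 with TCPM and 93.3 ± 9.64 with DMSO, a difference of -0.90 ± 0.21 (adjusted p = 0.00887). rtn4rl2a, which encodes a Nogo receptor relative on axons, had 167 ± 14.4 normalised counts with TCPMOH, 252 ± 16 with TCPM and 371 ± 26.6 with DMSO, a difference of -0.60 ± 0.15 (adjusted p = 0.0294), which did not pass on the deposited scale.

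Digestive organ genes gave no call. Of 27 tested exocrine pancreas enzymes 0 passed in either direction. An unadjusted p under 0.05 was reached by 0 higher and 3 lower, against 474 and 517 of all 22734 genes. Their median difference was -0.22, with 23 of 27 below 0. prss1, a trypsin, had 30439.6 ± 2274 normalised counts with TCPMOH, 37368 ± 3108 with TCPM and 28824 ± 2279 with DMSO, and the difference was -0.30 (-0.61 to 0.02). The interval holds 0, so neither a lower level nor an equal one is shown. For cpa5, a carboxypeptidase, the difference was -0.21 (-0.46 to 0.05), and for ela2l, an elastase, it was -0.09 (-0.69 to 0.52). Trypsin and elastase genes are duplicated families and uncertain as single genes.

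Endocrine pancreas genes also gave 0 calls of 26, and an unadjusted p under 0.05 was reached by 0. The median was 0.02. The insulin gene ins had 261 ± 20.4 normalised counts with TCPMOH, 257 ± 16.9 with TCPM and 247 ± 17.9 with DMSO, with a difference of 0.02 (-0.27 to 0.31), and gcga, a glucagon gene, differed by -0.14 (-0.40 to 0.13). The factors that specify the pancreas were read at low levels: pdx1 had 70.4 with TCPMOH, 63.2 with TCPM and 49.5 with DMSO and a difference of 0.16 (-0.30 to 0.62), and ptf1a had 54.6 with TCPMOH, 50.0 with TCPM and 55.3 with DMSO and 0.12 (-0.33 to 0.58). Both intervals hold 0. fabp2, the fatty acid binding protein of the intestine, differed by -0.01 (-0.20 to 0.18), and 0 of 42 intestine and 0 of 41 liver genes passed (1 and 0 genes at an unadjusted p under 0.05). In the liver list hpxa, a hemopexin gene, was higher with TCPMOH on the deposited scale (difference 0.42, adjusted p = 0.0218). With the root of the standard error taken from the dispersion alone it was higher as well (0.67, adjusted p = 0.0073). With the root used for the values reported it did not pass (adjusted p = 0.9996).

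Mitochondrially encoded transcripts and replication genes had negative medians and no call. All 12 tested mitochondrial transcripts had negative differences with a median of -0.17, and 0 passed, with 2 lower at an unadjusted p under 0.05. mt-cyb, cytochrome b, had 66927 ± 4075 normalised counts with TCPMOH, 73113 ± 2203 with TCPM and 58857 ± 2828 with DMSO, a difference of -0.13 (-0.34 to 0.08), and mt-nd2, a complex I subunit, differed by -0.11 (-0.34 to 0.11). Transcripts of 1 genome are processed from common precursors and are not independent of each other. Of 47 replication genes 0 passed, and the median was -0.10. An unadjusted p under 0.05 was reached by 0 higher and 9 lower, against 474 and 517 of all 22734 genes. mcm3, a subunit of the replicative helicase, had 903 with TCPMOH, 1116 with TCPM and 1274 with DMSO and a difference of -0.31 (-0.51 to -0.10, adjusted p = 0.384), and mcm2, another subunit, differed by -0.26 (-0.46 to -0.06).

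Lists for central metabolism and for differentiated tissues had 0 calls in either direction. They were the 30 genes of cholesterol synthesis and uptake, 32 of fatty acid oxidation, 34 of glucose metabolism, 33 of the antioxidant response, 37 of inflammation, 22 of the p53 response and 36 of mitosis, and also 52 lens genes, 49 of neurons and glia, 64 of muscle and 30 of red blood cells. Cytosolic ribosomal proteins (94 genes), mitochondrial ribosomal proteins (74) and nuclear oxidative phosphorylation (87) likewise had none. At an unadjusted p under 0.05 each of these lists held 0 to 3 genes in a direction. On the deposited scale ldlra, an LDL receptor gene of the cholesterol list, passed (adjusted p = 0.0431) and was lower with TCPMOH (difference -0.30). ucp3, a mitochondrial uncoupling protein of the fatty acid oxidation list, passed there too and was lower (-0.45, adjusted p = 0.00551). socs3a, a feedback inhibitor of cytokine signalling, passed there and was higher (0.49, adjusted p = 0.00529). With shrinkage undone the adjusted p was 0.0530 for ldlra, 0.148 for ucp3 and 0.9996 for socs3a. ldlra also passed with a base mean of at least 50 and with covariance from counting error and dispersion. msmo1, a sterol methyl oxidase, had 438 with TCPMOH, 371 with TCPM and 254 with DMSO, a difference of 0.24 (-0.01 to 0.49). Medians of these lists ran from -0.06 to 0.08, although single intervals in the inflammation list extended as far as 2.26 log2 units. Signs were uneven in some lists, with 17 positive and 77 negative differences for cytosolic ribosomal proteins and 29 positive and 7 negative for mitosis. A p that misses the threshold does not show that both compounds left these genes alike.

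**Figure D4:**
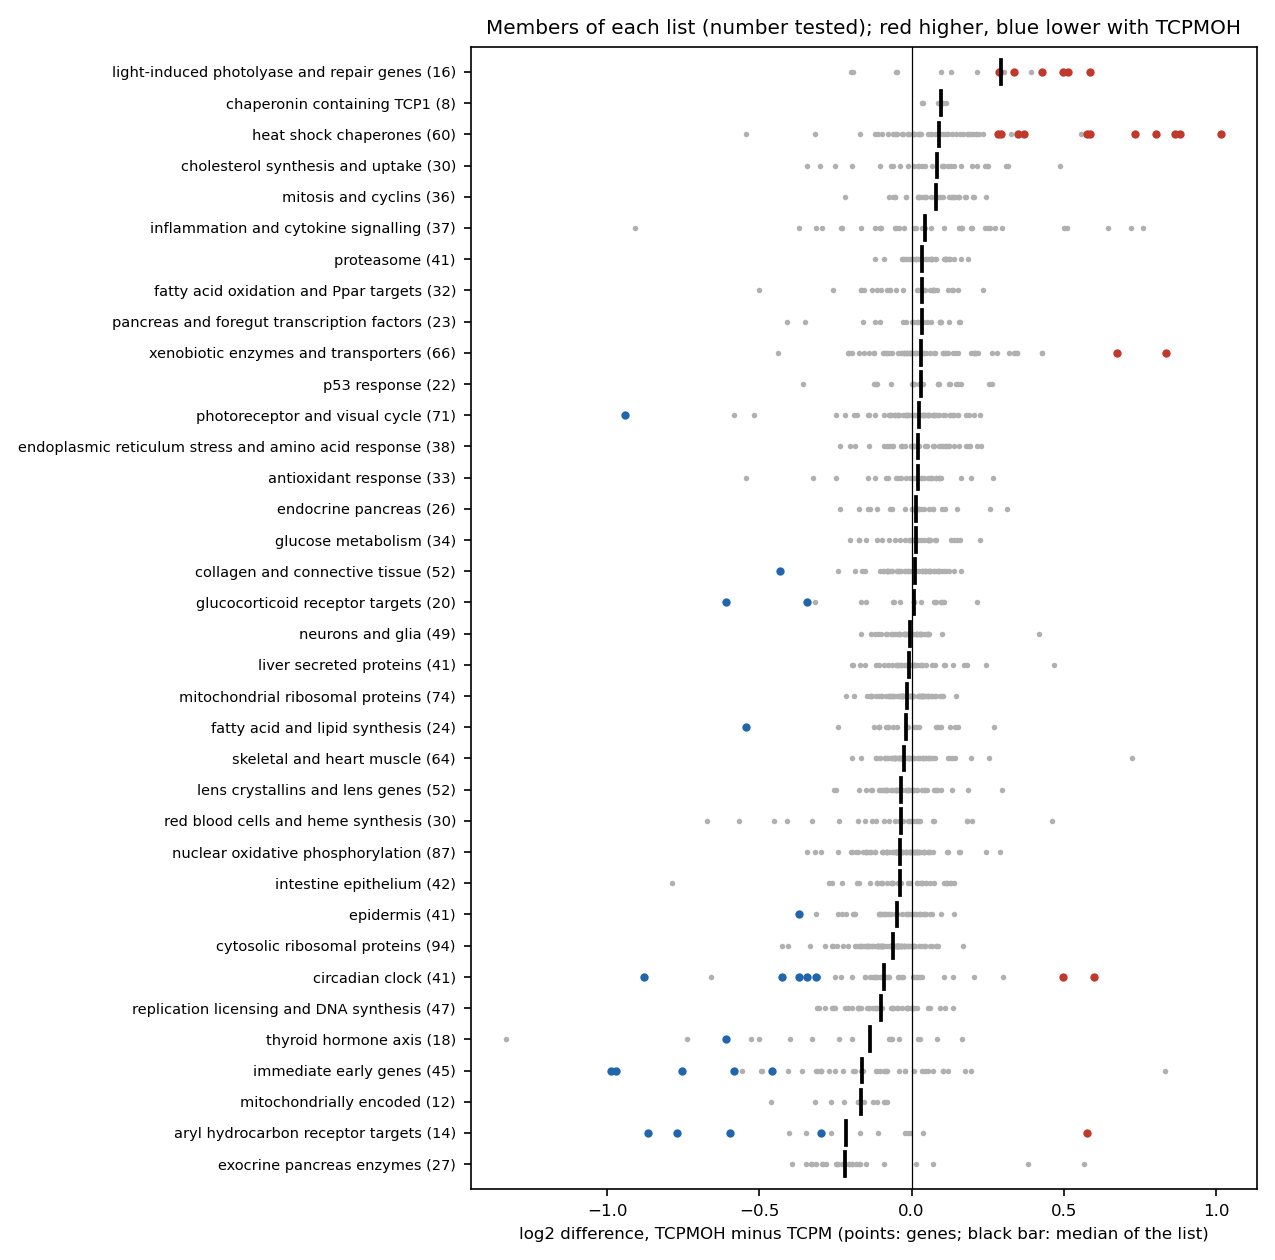
Difference (x axis, log2, TCPMOH minus TCPM) of every tested gene in 36 lists, with the number tested in brackets and a black bar at each list's median; red genes were higher and blue genes lower with TCPMOH. Called genes crowd in the heat shock, light-induced, immediate early, clock and Ahr lists, and the medians reach from -0.22 to 0.29. The lists were chosen with earlier results of these data known, so the crowding is a description.

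Genes that define 16 cell types were examined as markers of tissue composition. All 48 markers were tested and detected in both groups, the lowest group mean being 42.6 with TCPMOH and 50.0 with TCPM, and 0 were called, with 1 at an unadjusted p under 0.05. Their differences ran from -0.67 to 0.18 with a median of -0.023. The lowest value belonged to hbae1.1, a globin gene of red blood cells.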

How the data were processed

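Whole-larva RNA-seq of 15 pools was used through the authors' 2 deposited tables, each a comparison of a compound with DMSO over 36351 genes. Per the submitters' processing notes the tools were FastQC, cutadapt, STAR, featureCounts and DESeq2, without versions. Gene models were GTF version V4.3.2, per the file headers. The genome build was not stated, and no coordinates are printed. The signal called base mean was deposited by the authors as the mean of read counts over size factors. The log2 fold changes and their standard errors were deposited by the authors after shrinkage toward 0, the Wald score is their ratio in the deposited tables, and their p-value was deposited as the normal tail of that score on both sides. No column per library is in them. Deposited fold changes are DMSO over compound, and their signs were turned.

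A normal prior (SD 0.248 for TCPMOH and 0.216 for TCPM, from the largest standard errors) was undone per gene. Of the 2 standard errors that can give a deposited one, that which best matched the dispersion trend and the DMSO mean of the other table was kept. The DMSO means implied by the tables then differed by 0.000544 (log2) at the median and by 0.00771 at the 99th percentile. This gap was part of the choice, so its small size does not test whether the choice was right. For the DMSO libraries common to both fits, a covariance of the product of both standard errors over 2 was used, since group sizes are equal. Adjusted p-values are Benjamini-Hochberg over all 22734 genes, and 1 pair of compounds was compared. Group means are on the scale of the TCPMOH table. On simulated data for this comparison, with 22734 genes of which 200 were changed, 66% of changes of 0.5 log2 units and 99% of changes of 1 were recovered. Of 176 calls 11 were among unchanged genes, and 95.0% of unchanged genes lay inside their 95% interval. The changed genes all had a DMSO mean of 100 or more, so recovery at lower levels was not tested. The prior and the dispersions were the true ones, so these shares do not test how well either was estimated. Both simulated tables also held the same DMSO mean for each gene, so the match used to choose the standard error was exact. In the deposited data the median size of the ratio of difference to standard error was 0.866 of that of a standard normal. The simulated shares need therefore not hold there.

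Members and gene lists were chosen with earlier results of these data known, so the calls per list are descriptions. Named genes were those with the 12 largest differences each way among called genes with a proper symbol, up to 4 genes per list with a call by smallest p, and 30 genes kept whatever their values. Other genes named (all the remaining called list members, ahrra, cyp1c2, nqo1, ddb2, ugt1b1, abcc4, fkbp5, tg, opn1mw2, hpxa, ldlra, socs3a and ucp3) were chosen after their values were seen. Of 29219 Entrez identifiers 25576 were found in the RefSeq table (GRCz12tu), which was used for names and neighbours only, and 52 list names were matched by synonym. Python 3.11.15, numpy 2.4.6, scipy 1.17.1 and pandas 2.3.3 were used. Alternatives were the scale, the prior, the covariance, the filter and the normalization.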

Additional observations from a re-analysis of the deposited data

How the results depend on the processing

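Over all genes, covariance 0 was the 1 alternative run that moved a count by over 1.5 times. With it, as if the DMSO libraries were not shared, 15 genes were called, 11 higher and 4 lower with TCPMOH, and 12 of the 34 named called genes passed; this setting widens every interval by construction. The other alternatives called 83 to 103 genes (44 to 55 higher, 39 to 48 lower) and shared 83 to 92 of the 93 with the values reported. They were the deposited shrunken scale (103), a prior 5% wider (90), covariance from counting error and dispersion (94), no filter (83 of 31523 genes), a base mean of at least 50 (93 of 18898 genes), centring on the median (90), equal DMSO totals (91) and, chosen after seeing the data, the root of the standard error taken from the dispersion alone (97). Counts per list also moved by over 1.5 times on the deposited scale (immediate early genes lower 3, thyroid axis 2, photoreceptor 2), with the wider prior (xenobiotic genes higher 1), with a base mean of at least 50 (thyroid axis 2) and without the filter (lipid synthesis 0). Covariance 0 apart, of the 41 called list members dusp5 lost its call under 6 alternatives, npas4a on the deposited scale, cyp2k6 with the wider prior, and cyp1c1, elovl1a and si:ch211-199o1.2 without the filter. Outside the lists rtn4rl2a and bcl6ab lost their calls on the deposited scale, and PLEKHB1, dhrs12 and ints3 without the filter. gpr186 and si:dkey-201c13.2 lost theirs without the filter and with centring, and gpr186 also with covariance from counting error and dispersion. XLOC_035411 lost its call with both of the former settings, the deposited scale, the wider prior and equal DMSO totals. XLOC_009558 lost its call with the root taken from the dispersion alone. With a base mean of at least 50, XLOC_009558, XLOC_029220 and XLOC_035465 were not tested and so were not called. The covariance and filter settings leave each difference as it is, and centring and equal DMSO totals moved it little, so signs could hardly change there. With the scale, the prior or the root altered, none of the 34 named called genes changed sign. Sizes did change with the scale and the prior, to a degree that differed between genes. The difference of pde6ga was -0.94 in the values reported, -0.74 with the wider prior and -0.48 on the deposited scale. That of serpinh1b was 0.87, 0.86 and 0.83 in the same order. The standard errors of the differences do not cover this dependence. No paired analysis was possible because the tables hold no column per library. For the same reason no library was left out in turn. Depth limited the genes below a base mean of 100, where the median interval extended 0.525 log2 units to each side.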

Other observations

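Called genes outside the lists, chosen here after their values were seen, included neighbours. eevs and zgc:113054, the enzymes that make gadusol, a UV-absorbing compound of fish eggs and larvae, are adjacent in the RefSeq annotation. eevs had 1748 ± 102 normalised counts with TCPMOH, 1236 ± 63.9 with TCPM and 871 ± 49 with DMSO, a difference of 0.50 ± 0.11 (adjusted p = 0.00496). zgc:113054 had 1142 ± 61.2 normalised counts with TCPMOH, 795 ± 40.1 with TCPM and 595 ± 31.9 with DMSO, a difference of 0.52 ± 0.11 (adjusted p = 8.44e-04). Of 82 called genes placed in that annotation, 5 pairs had at most 4 genes between them. The others were hsp90aa1.2 with hsp90aa1.1, hsp70.2 with hsp70.3, and 2 pairs called in opposite directions, PLEKHB1 with dhrs13a.2 and faim2b with nr1d4b. The call for PLEKHB1 was lost without the filter on base means (adjusted p = 0.0584).

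Further called genes encode muscle, lipid transport and RNA processing proteins. tcap, the titin cap of the sarcomere, had means of 542 with TCPMOH, 758 with TCPM and 841 with DMSO, a difference of -0.48 ± 0.11 (adjusted p = 0.00334). mfsd2ab, a lysophospholipid transporter, had means of 587 with TCPMOH, 775 with TCPM and 760.4 with DMSO, a difference of -0.40 ± 0.088 (adjusted p = 0.00308). srpk1a, a kinase of SR splicing factors, had means of 1264 with TCPMOH, 1028 with TCPM and 933 with DMSO, a difference of 0.30 ± 0.073 (adjusted p = 0.0144). nfe2l1b, a relative of Nrf2 that controls proteasome genes, had means of 743 with TCPMOH, 587 with TCPM and 652 with DMSO, a difference of 0.34 ± 0.087 (adjusted p = 0.0251).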
